A study of Mus musculus with 14 samples.

Results

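The genes described are 9 genes of liver glycogen metabolism, namely 4 glycogen-targeting subunits of protein phosphatase 1 (Ppp1r3b, Ppp1r3c, Ppp1r3d and Ppp1r3g), glycogen synthase (Gys2), glycogen phosphorylase (Pygl), the branching enzyme (Gbe1), a regulatory subunit of phosphorylase kinase (Phka2) and UDP-glucose pyrophosphorylase (Ugp2). They were taken by name, with earlier results of these data known. All 9 were found among the 22180 genes whose probe sets carry 1 gene symbol, each represented by its probe set with the highest mean over the arrays. Frozen liver of male mice of the inbred strain C57BL/6J gave 14 RNA samples, each taken here as 1 mouse and called by the number in its title. The sleep deprivation group held 7 of them (mice 1, 2, 3, 5, 6, 10 and 13) and the control group the other 7 (mice 4, 7, 8, 9, 11, 12 and 14). The series title names 1 sleep deprivation of 6 h. Gentle handling, a water platform and changes of the cage were tried, and the liver work used a model with impaired glucose tolerance, but the texts do not say which method that was. No genetic change or drug is named for either group, and no age, feeding state or time of day is stated. Expression was measured on Affymetrix whole-transcript arrays as log2 levels, whose medians per array lay between 3.44 and 3.49, and the number of arrays limits the precision. The liver label was checked against hepatocyte markers, of which 6 of the 7 measured had a control mean above 8 on the log2 scale, and the remaining one, Ass1, was at 5.45.

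Glycogen is the branched store of glucose from which the liver feeds the blood between meals. Ugp2 makes UDP-glucose, Gys2 adds its glucose to growing chains and Gbe1 introduces the branches, while Pygl takes glucose units off again. Phosphorylation switches the balance, since phosphorylase kinase activates the phosphorylase, and protein phosphatase 1 (PP1) removes phosphate from both the synthase and the phosphorylase. The Ppp1r3 proteins hold PP1 on the glycogen particle, and Ppp1r3b is known as the main such subunit of liver.

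After sleep deprivation the 9 genes moved in different directions. Ppp1r3c, Ppp1r3b and Pygl were higher, Phka2, Gbe1 and Ugp2 were lower, and Gys2, Ppp1r3d and Ppp1r3g did not pass the test (limma, p adjusted over all genes, threshold 0.05). Thus 3 of 9 genes were higher, where 3.88% of all genes were, and 3 of 9 were lower, where 4.62% of all genes were. In either direction 6 of 9 passed, beside 8.50% of all genes. These shares include dim genes, while all of the 9 but Ppp1r3d and Ppp1r3g lay above the median level. When the 11090 genes above that level were tested alone, a larger share passed, 1046 higher and 1213 lower. Of the 9, 3 were higher and 4 lower there, and Ppp1r3d and Ppp1r3g were not in that test. The median log2 difference of the 9 was -0.068, beside -0.0048 over all genes. Sleep-deprived and control mice had no overlapping values for Ppp1r3c, Ppp1r3b, Phka2 and Gbe1, which is 4 of 9, beside 3.13% of all genes. As the 9 were chosen with earlier results of these data known, these counts describe them and are no independent support. In whole-tissue RNA such as this, fewer cells of a type and less RNA per cell cannot be told apart.

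**Figure D1:**
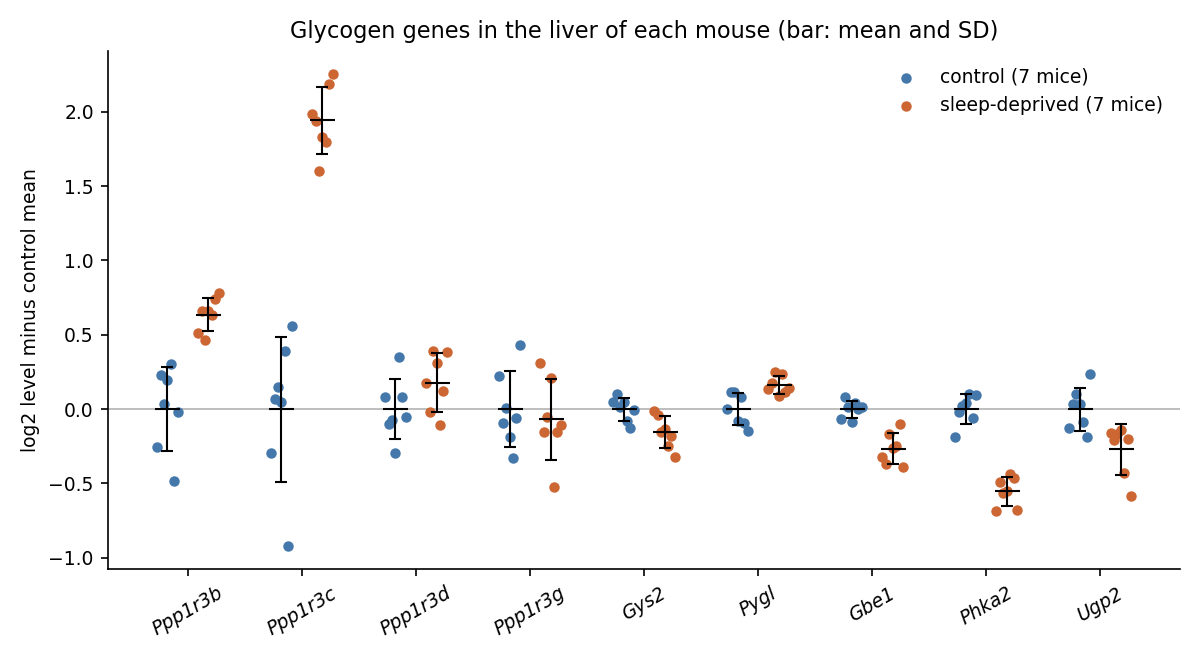
Log2 level of each of the 9 genes in each mouse, with the mean of the 7 control mice subtracted (vertical axis), for 7 control mice in blue and 7 sleep-deprived mice in orange; black bars are group means with SDs. Ppp1r3c lies highest in the sleep-deprived mice, with a mean difference of 1.94, and its control mice spread more widely (SD 0.49) than its sleep-deprived mice (SD 0.23).

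Among the PP1 targeting subunits, Ppp1r3c changed most. This subunit, also called protein targeting to glycogen, is made in many tissues. Its log2 level ran from 5.39 to 6.86 in control mice, with a median of 6.37, and from 7.91 to 8.56 in sleep-deprived mice, with a median of 8.24. Every sleep-deprived mouse thus lay above every control mouse. The rise was 1.94 ± 0.17 on the log2 scale (limma's moderated SE here and below, n = 7 per group), or 3.84-fold, with an adjusted p of 3.52e-07, and 5 of the 22180 genes had a larger rise. Control mouse 12 had the lowest value, at 5.39, and without it the difference was still 1.79.

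Ppp1r3b, the subunit best known from liver, rose by less. In control mice it ran from 8.37 to 9.16 with a median of 8.89, and in sleep-deprived mice from 9.32 to 9.63 with a median of 9.51. The groups did not overlap, and the difference was 0.64 ± 0.097 or 1.55-fold (limma, adjusted p = 0.000215). A dimmer probe set of the same gene went the same way by 0.38 ± 0.092, from a control mean of 7.76 ± 0.24 to 8.15 ± 0.14 (SD, n = 7 each, limma adjusted p = 0.0112 over all probe sets), and there the highest control mouse, at 7.99, lay above the lowest sleep-deprived mouse, at 7.97.

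Ppp1r3d and Ppp1r3g, relatives measured at low signal, did not pass. Ppp1r3d lay between 3.11 and 3.75 in control mice (median 3.35) and between 3.30 and 3.79 in sleep-deprived mice (median 3.58), a difference of 0.18 with a 95% interval from -0.030 to 0.39 (limma, adjusted p = 0.364). For Ppp1r3g the ranges were 3.59 to 4.35 (median 3.86) and 3.39 to 4.23 (median 3.81), and the difference was -0.068 with an interval from -0.33 to 0.19 (adjusted p = 0.848). Both means lay below the median level of all genes, 3.99. Without detection calls it is not known whether such levels are background, so that a change of either may be hidden or understated.

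The promoters of the subunit that changed most and of a relative that did not pass are shown side by side. RefSeq's table (GRCm38.p6) held 8 windows for 7 of the 9 genes and none for Ppp1r3b and Gys2. Each run below is the 250 bases before the annotated start, 5′ to 3′ on the strand of the gene. Ppp1r3c is at chr19:36736605-36736854 (minus strand) and Ppp1r3d at chr2:178414464-178414713 (minus strand). Capitals mark matches, on either strand, to CACGTG (an E-box, bound among others by the clock activators), TGACG (the core of a cAMP response element), AGAACA (the core of a glucocorticoid receptor site) or GTAAACA (a FOXO site).
Ppp1r3c: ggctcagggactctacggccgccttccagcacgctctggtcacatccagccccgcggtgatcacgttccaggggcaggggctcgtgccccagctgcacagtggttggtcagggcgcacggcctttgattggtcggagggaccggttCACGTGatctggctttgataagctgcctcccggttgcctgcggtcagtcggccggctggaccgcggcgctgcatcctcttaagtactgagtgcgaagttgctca
Ppp1r3d: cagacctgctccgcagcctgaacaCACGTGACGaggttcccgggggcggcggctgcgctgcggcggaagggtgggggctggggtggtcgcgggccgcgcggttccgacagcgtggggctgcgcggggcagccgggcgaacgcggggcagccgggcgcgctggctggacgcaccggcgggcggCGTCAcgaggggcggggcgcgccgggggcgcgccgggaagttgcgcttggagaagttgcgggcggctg

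Ppp1r3c held 1 E-box, 104 to 99 bases before the start. Ppp1r3d also held 1, at 226 to 221 bases, which shares 2 bases with a TGACG match, so that their capitals run together, and a second TGACG match at 68 to 64 bases. E-boxes were in 6.02% of all 32851 windows of this length, and in none of the windows held for other members (Ppp1r3b and Gys2 had no window to search). An E-box stood upstream of Ppp1r3c, which rose, and of Ppp1r3d, which did not pass but whose change may be hidden. Whether an E-box goes with a rise was not tested. Such matches describe letters and not binding.

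The changes of the subunits were compared within each mouse, by taking the log2 difference of a pair and testing it between the groups (exact permutation test, two-sided, adjusted over 8 pairs, smallest possible unadjusted p 0.000583). Ppp1r3c rose by 1.31 more than Ppp1r3b (95% interval 1.02 to 1.58, adjusted p = 0.00155), which is 2.47-fold, and no sleep-deprived mouse overlapped with a control mouse. The other 5 pairs of subunits hold Ppp1r3d or Ppp1r3g, whose levels could not be told from background on these arrays. A probe set at background would not show a change, and without detection calls it is not known whether theirs were. The differences of Ppp1r3c against them (1.76 and 2.01) and of Ppp1r3b against them (0.46 and 0.70) mostly restate the rises of Ppp1r3c and Ppp1r3b. They do not show that the subunits respond differently, and nothing is read from Ppp1r3d against Ppp1r3g (0.25).

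**Figure D2:**
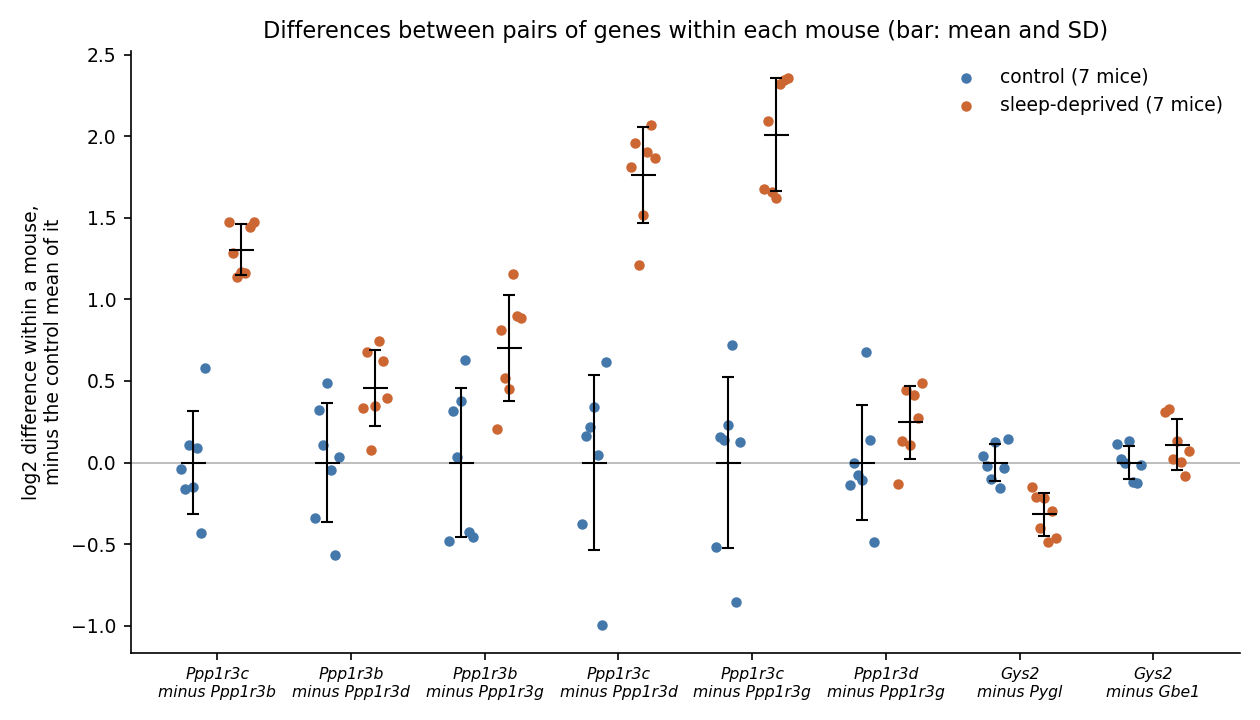
Log2 difference between a pair of genes within each mouse, with the control mean of that difference subtracted (vertical axis), for 8 pairs, 7 control mice (blue) and 7 sleep-deprived mice (orange); black bars are means with SDs. Ppp1r3c minus Ppp1r3b is higher by 1.31 without overlap of the groups, Gys2 minus Pygl is lower by 0.32 in the sleep-deprived mice, and the 5 pairs with Ppp1r3d or Ppp1r3g involve levels not told from background.

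Whether mice with more Ppp1r3b also had more Ppp1r3c was examined within each group. Over the 7 sleep-deprived mice Pearson's r was 0.78 (exact permutation p = 0.0347) and Spearman's rho 0.75 (exact p = 0.0663), and r was 0.97 without the 2 mice farthest from the median of Ppp1r3b. In the 7 controls r was 0.79 (exact p = 0.0331) and rho 0.54 (exact p = 0.236), but r became -0.35 without the 2 farthest mice, so that this relation rests on them. All 36 pairs of the 9 genes were examined in each group, and none of the 72 relations passed after adjustment (smallest adjusted p of the exact test 0.732), with 4 at an unadjusted exact p under 0.05 by Pearson's r and 2 by Spearman's rho.

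**Figure D3:**
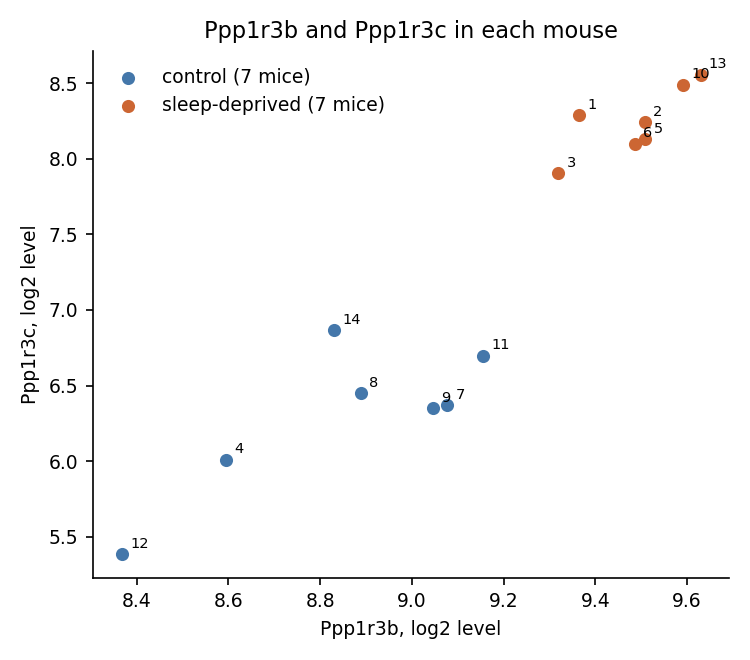
Log2 level of Ppp1r3c (vertical axis) against that of Ppp1r3b (horizontal axis), 1 point per mouse labelled with its number, 7 control mice in blue and 7 sleep-deprived mice in orange. Control mice 12 and 4 are the lowest in both genes, and sleep-deprived mice 13 and 10 are the highest in both.

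Glycogen synthase and phosphorylase moved apart. Gys2, the liver synthase, ran from 10.71 to 10.93 in control mice (median 10.85) and from 10.51 to 10.82 in sleep-deprived mice (median 10.68). All 7 sleep-deprived mice were below the control mean, 2 of them inside the control range, and the difference of -0.16 ± 0.049 (1.11-fold lower) had an adjusted p of 0.0560 (limma), just outside the threshold. It passed without control mouse 12 (limma, adjusted p = 0.0342) or without sleep-deprived mouse 1 (0.0282) or 2 (0.0322), and with the mouse number as a covariate it was -0.22 (adjusted p = 0.00207).

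Pygl, the liver phosphorylase, lay just inside the threshold. Its log2 level was 9.22 to 9.48 in control mice (median 9.37) and 9.45 to 9.62 in sleep-deprived mice (median 9.51), with 2 mice of each group inside the range of the other. The rise was 0.16 ± 0.049 or 1.12-fold (limma, adjusted p = 0.0457). Leaving out 1 mouse at a time ended this call in 10 of 14 cases, namely without control mouse 4, 9, 12 or 14 or sleep-deprived mouse 1, 2, 3, 6, 10 or 13, where the adjusted p reached 0.0966, and it was lost with the mouse number as a covariate (0.13, limma, adjusted p = 0.165). Taken within each mouse, Gys2 minus Pygl was lower by 0.32 in the sleep-deprived group (95% interval of the change -0.46 to -0.17, exact permutation test, adjusted p = 0.00233). This was a shift of 1.25-fold, with the groups overlapping by a narrow margin. Its p was adjusted over 8 pairs only, and those of the single genes over all genes, so the 2 are not alike. Unadjusted, the exact permutation p was 0.00117 for the pair, 0.00466 for Pygl alone and 0.0117 for Gys2 alone. With the adjustment over 8 pairs, the shift of the pair stayed past the threshold whichever of the 14 mice was left out, with values from -0.35 to -0.29.

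The branching enzyme and the maker of UDP-glucose were lower. Gbe1 ran from 8.86 to 9.02 in control mice (median 8.96) and from 8.56 to 8.85 in sleep-deprived mice (median 8.68). The groups were separated by a small gap, and the difference was -0.27 ± 0.050, or 1.20-fold lower (limma, adjusted p = 0.00150). Ugp2 ran from 10.30 to 10.72 in control mice (median 10.52) and from 9.91 to 10.35 in sleep-deprived mice (median 10.29), where 3 sleep-deprived mice lay inside the control range. Its difference was -0.27 ± 0.073, or 1.21-fold lower (limma, adjusted p = 0.0229), and the adjusted p was 0.0508 without control mouse 8 and 0.0507 without control mouse 14. Within each mouse the change of Gys2 differed from that of Gbe1 by 0.11 (95% interval -0.042 to 0.26, exact permutation test, adjusted p = 0.149).

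Phka2, the alpha subunit of the liver form of phosphorylase kinase, had the largest fall of the 9. It ran from 6.90 to 7.18 in control mice (median 7.11) and from 6.40 to 6.65 in sleep-deprived mice (median 6.53). Every sleep-deprived mouse lay below every control mouse, and the SD within a group was 0.099 in controls and 0.10 after sleep deprivation. The difference of -0.55 ± 0.060 amounted to 1.47-fold lower (limma, adjusted p = 5.40e-06). Leaving out any 1 mouse gave values from -0.58 to -0.53.

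The windows of the phosphorylase gene Pygl, at chr12:70227684-70227933 (minus strand), and of Phka2, at chrX:160501912-160502161 (plus strand), are shown as those of an enzyme and of a regulatory subunit of the kinase that acts on it, read and marked in the same way.
Pygl: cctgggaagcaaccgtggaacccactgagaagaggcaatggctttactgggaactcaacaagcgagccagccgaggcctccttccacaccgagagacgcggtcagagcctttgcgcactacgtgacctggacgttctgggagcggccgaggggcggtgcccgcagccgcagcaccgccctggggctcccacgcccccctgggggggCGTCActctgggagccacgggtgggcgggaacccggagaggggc
Phka2: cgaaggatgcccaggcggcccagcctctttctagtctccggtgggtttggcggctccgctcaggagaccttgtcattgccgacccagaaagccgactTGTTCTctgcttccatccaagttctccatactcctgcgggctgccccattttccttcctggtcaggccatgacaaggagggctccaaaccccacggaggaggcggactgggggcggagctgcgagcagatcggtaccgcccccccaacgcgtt

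Pygl held 1 TGACG match, 44 to 40 bases before the start, and Ppp1r3g held 1 at 40 to 36 bases, where 17.8% of all windows had at least 1. Phka2 held the 1 match to AGAACA among the 8 windows, 153 to 148 bases before the start, beside 16.1% of all windows. GTAAACA matched in 0 of the 8 windows and in 3.17% of all.

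The other subunits of phosphorylase kinase did not pass. Of 7 listed, 4 were measured with a single gene symbol and 0 were called, near the 8.50% of all genes (limma; 0 at an unadjusted p under 0.05). Phkg2, a catalytic subunit, was at -0.053 ± 0.052 and the beta subunit Phkb at -0.074 ± 0.070. Phkg1 had a low control mean, 3.29, so that a change of it may be hidden. For Phka1, the alpha subunit of muscle, the difference was 0.019 ± 0.062 (limma, adjusted p = 0.922). Whether the fall of Phka2 exceeded the differences of these subunits was not tested.

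For PP1 itself no difference passed. Among 8 genes of PP1 catalytic subunits, inhibitors and other glycogen-targeting subunits, 0 were called (limma; 1 at an unadjusted p under 0.05, Ppp1r1a, an inhibitor of PP1, at 0.24 ± 0.096). With 8.50% of all genes called, 0 of 8 is near that share. Ppp1r3a and Ppp1r3f had low control means, 1.83 and 2.24, so that a change of either may be hidden. The catalytic subunits Ppp1ca and Ppp1cb had differences of -0.054 (95% interval -0.16 to 0.054) and -0.0029 (-0.11 to 0.10).

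Glycogenin and a glycogen-binding protein were lower too. Of 34 other pathway genes measured, 2 were higher and 7 lower (limma), with a median log2 difference of -0.020, beside the 3.88% and 4.62% of all genes. The shares of all genes include dim ones. Gyg, which encodes glycogenin, the primer of new glycogen, was at -0.41 ± 0.093 (adjusted p = 0.00748), and Stbd1, a protein that binds glycogen, at -0.31 ± 0.059 (adjusted p = 0.00146). Gyg was the 1 gene called among 6 other enzymes, where the lysosomal glucosidase Gaa was at 0.0031 ± 0.051 and Pgm2, of the phosphoglucomutase family, at 0.037 ± 0.083. Laforin, a phosphatase of glycogen encoded by Epm2a, was at -0.30 ± 0.12 (limma, adjusted p = 0.165, and 0.0434 without sleep-deprived mouse 6), and malin, encoded by Nhlrc1, at 0.085 ± 0.11.

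Among kinases and hormone receptors that act on glycogen synthesis or breakdown, 4 of 9 were called lower and 0 higher (limma), beside 4.62% and 3.88% of all genes. All 9 lay above the median level, where a larger share of genes passed when tested alone. The 4 were the catalytic subunits of protein kinase A, Prkaca (-0.19 ± 0.051) and Prkacb (-0.22 ± 0.053), the adrenergic receptor Adra1b (-0.32 ± 0.064) and the glucagon receptor Gcgr (-0.20 ± 0.062). Prkaca no longer passed with the mean of its probe sets (-0.082, limma, adjusted p = 0.499) and with the mouse number as a covariate (adjusted p = 0.0796). Gcgr, at an adjusted p of 0.04996, passed after leaving out control mouse 7 or 12 or sleep-deprived mouse 2 and failed for each of the other 11 mice (limma, adjusted p up to 0.111). It also failed without the intensity trend (adjusted p = 0.0808), with array weights (0.0502), averaged probe sets (0.0505) or every probe set as a feature (0.0526), with centred arrays (0.0726) and after quantile normalization again (0.0885). The insulin receptor Insr was at -0.088 ± 0.039 (adjusted p = 0.201) and the synthase kinase Gsk3b at 0.053 ± 0.054 (adjusted p = 0.689).

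Around glucose 6-phosphate, where glycogen breakdown meets glucose release, 2 of 4 genes were higher and 1 lower, beside 3.88% and 4.62% of all genes. All 4 lay above the median level, where a larger share of genes passed when tested alone. G6pc, the glucose-6-phosphatase, was higher by 0.55 ± 0.12 (limma, adjusted p = 0.00416), and Slc37a4, which carries glucose 6-phosphate to it in the endoplasmic reticulum, by 0.24 ± 0.052 (adjusted p = 0.00406). Slc2a2, the glucose transporter of hepatocytes, was lower by 1.21-fold, at -0.27 ± 0.058 (adjusted p = 0.00455), and Gckr, the regulator of glucokinase, was at -0.094 ± 0.056 (adjusted p = 0.404).

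**Figure D4:**
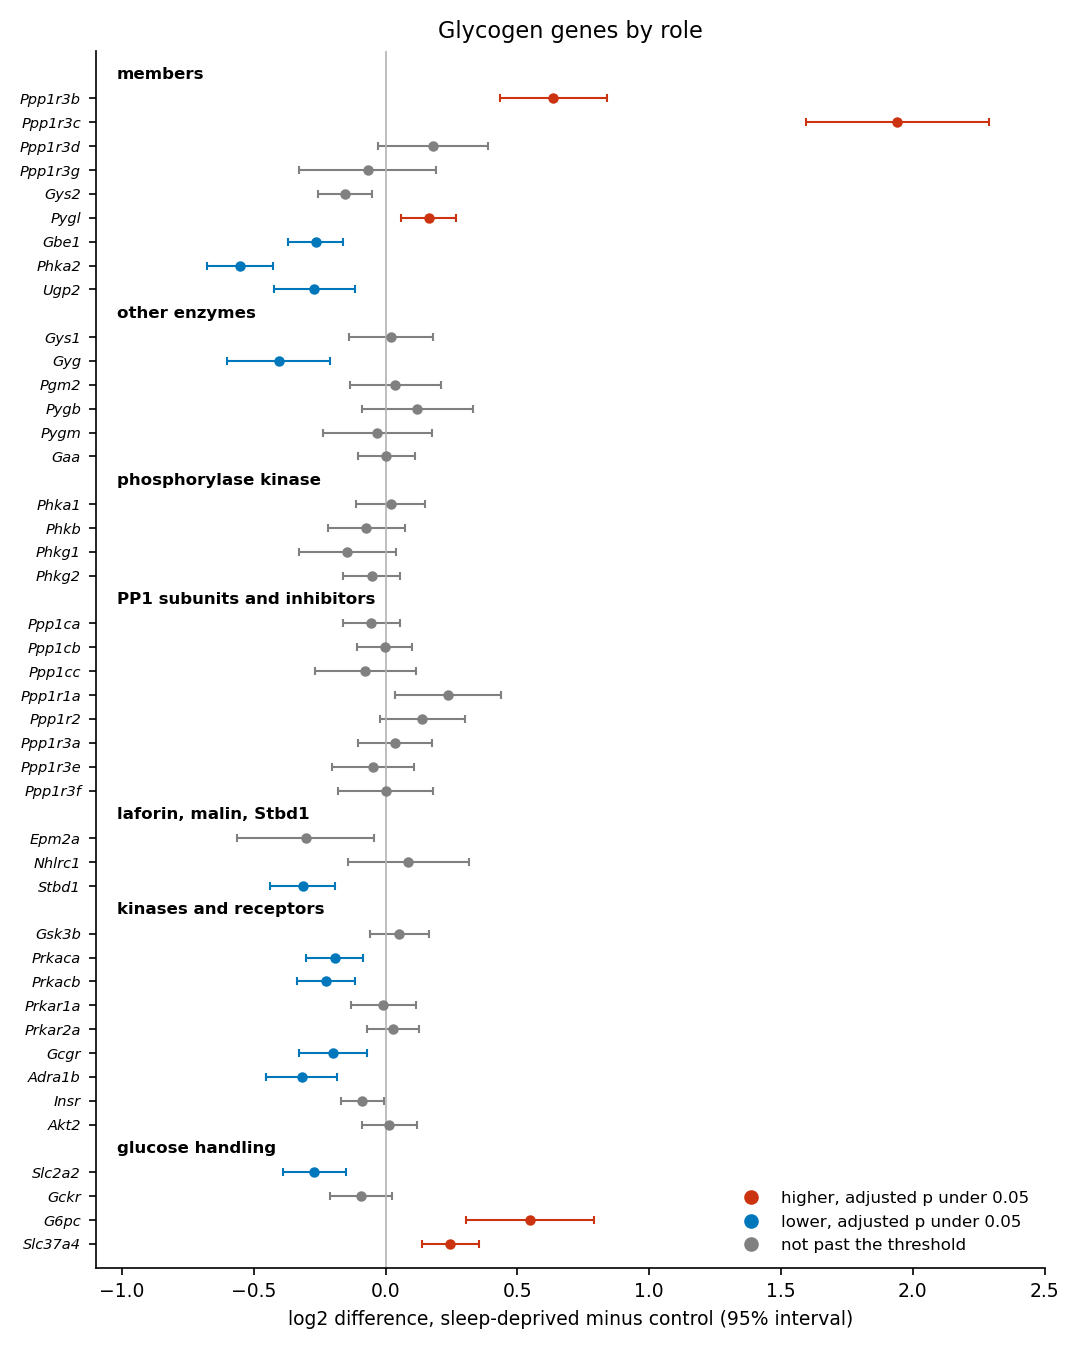
Log2 difference, sleep-deprived minus control (horizontal axis), with its 95% interval, for the 9 genes (at the top, under "members") and 34 other genes of the pathway grouped by role; red is higher, blue lower and grey not past the threshold (limma, p adjusted over all genes). Ppp1r3c stands far to the right at 1.94, and no gene of the phosphorylase kinase or PP1 groups is coloured.

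Ppp1r3c is also made in muscle and fat, and whole liver holds several cell types, so markers of other cells were measured beside it. Over all genes 3.88% were called higher and 4.62% lower, and a larger share passed among the brighter genes tested alone. In lists this short, a count of 0 or 1 cannot be told from these shares. Of 6 skeletal muscle markers 0 were called (limma), all had a control mean below 6, and the log2 of their summed level was 6.05 to 6.38 in control and 6.20 to 6.30 in sleep-deprived mice. Among 5 adipocyte markers 1 was higher, Fabp4, by 0.71, which other cells also make, and the summed level was 6.00 to 6.22 and 6.13 to 6.86, with Adipoq at a control mean of 2.46, low on these arrays. Sinusoidal endothelial markers were higher in 3 of 6, and the log2 of their sum was 9.91 to 10.27 and 10.08 to 10.58. The 3 were Lyve1, by 1.13 ± 0.18 or 2.19-fold with no overlap of the groups (limma, adjusted p = 0.000422), Oit3 (0.46) and Pecam1 (0.29), while Kdr was at -0.18 (adjusted p = 0.114), Clec4g at 0.12 and Stab2 at 0.044. Of 5 pericentral markers 1 was lower, Lgr5 (-1.05), and of 4 periportal markers Pck1 was higher (0.15) and Hal lower (-0.40). Hepatocyte markers were higher in 2 of 7, Apoa1 (0.12) and Cps1 (0.11), with a summed level of 15.33 to 15.41 in control and 15.35 to 15.40 in sleep-deprived mice. Of the markers of Kupffer cells (6), stellate cells (6) and neutrophils (4) 0 were called, while 1 of 4 cholangiocyte markers was higher (Sox9, 0.56). Of 4 markers of T and B cells 1 was lower (Cd79a, -0.38), and the 1 erythroid marker was not called. Cd79a, at a control mean of 3.49, and the neutrophil markers, at 1.95 to 3.08, lay below the median level of all genes, 3.99. So did the erythroid marker, at 3.87, and changes at such levels may be hidden or understated. The part of these cell types in the differences of the 9 genes was not tested.

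The genes whose levels followed those of the 6 called genes most closely were found by Pearson's r over all 14 arrays, a value that includes the difference between the groups and is given as a description. Clone names, predicted models, small RNA genes, Olfr and Vmn receptor genes and all symbols beginning with Rn were left out of this search. For Ppp1r3c the closest were Gin1 (0.98), the mTORC1 inhibitor gene Ddit4 (0.96) and Atg2b (0.96), which acts in autophagy. Within the groups of 7, r of Ppp1r3c with these 3 genes was 0.82 to 0.93 in controls and 0.56 to 0.70 after sleep deprivation. Ppp1r3b was followed by Nol8 (0.96), Heatr1 (0.95) and Atg2b (0.95), so that Atg2b stood in the list of both subunits, and r within groups was 0.85 to 0.92 and 0.56 to 0.70. With Gbe1 went Cd1d1 (0.98), Tenm3 (0.98) and Aldh1a1 (0.96), and r with them was 0.94 to 0.99 after sleep deprivation and 0.28 (Aldh1a1) to 0.84 in controls. Phka2 was followed by Slc35d2 (0.98), Syt1 (0.97) and Dock8 (0.97), with 0.69 to 0.90 in controls and 0.60 to 0.78 after sleep deprivation. With Pygl went Zfp568 (0.89), Tmx4 (0.88) and Atp6v0a2 (0.86), with 0.80 to 0.93 in controls and 0.28 (Atp6v0a2) to 0.90 after sleep deprivation. Ugp2 was followed by Srr (0.90), Zdhhc9 (0.89) and Sox13 (0.89), with 0.53 (Zdhhc9) to 0.86 in controls and 0.84 to 0.95 after sleep deprivation.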

How the data were processed

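Values were the log2 expression levels per probe set that the authors deposited, made by RMA per the submitters' processing notes, which give no version. Labelling used 100 ng of total RNA per sample with a whole-transcript kit, per the labels' protocols. The software, filters and genome build behind them were not given in the sources used here. Of 41345 probe sets, 23521 had 1 gene symbol in the platform annotation (23328 matched by Entrez ID to RefSeq, 0 symbols changed), 1814 had several and 16010 were unnamed here. The brightest probe set per gene left 22180 genes, with no filter on dim ones. Groups came from the sample titles. The labels do not say that each sample is a separate mouse, so p-values measure the spread between these samples. The mouse numbers of the titles are not shared between groups, and no pairing was made.

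In R 4.3.3, limma 3.58.1 fitted sleep-deprived minus control over all genes. Its eBayes step let the prior variance follow the mean level, tests were two-sided, and the Benjamini-Hochberg adjusted p, taken across the 22180 genes, had to be under 0.05. Pairs of genes and correlations within groups were tested by exact permutation in Python 3.11.15 (3432 splits, 5040 pairings). The steps were tested on simulated data. The 9 genes, the pathway and marker lists and the motifs were chosen with earlier results of these data known. Named genes were the 9, the other pathway genes past the threshold, up to 2 pathway genes per role not past it with the highest mean level, and the 3 genes most like each called gene. Phka1, the muscle alpha subunit, Phkg1 and Ppp1r1a were added after their values were seen. So were the cell type markers named, which are those past the threshold, all those measured of sinusoidal endothelium, Adipoq and Ass1. Of 42 other pathway genes listed, 34 had a probe set with a single symbol, and the other 8 were not analysed here.

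Alternatives tried were a constant prior variance, a robust prior, array weights, averaged probe sets, every probe set as a feature, only the brighter genes, centred arrays, quantile normalization again, the mouse number as a covariate, a threshold of 0.01, medians, an exact permutation test and leaving out each mouse.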

Additional observations from a re-analysis of the deposited data

How the results depend on the processing

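The directions of Ppp1r3b, Ppp1r3c, Gbe1 and Phka2 and their calls held under every alternative run, with log2 differences from 0.51 to 0.69, 1.79 to 2.06, -0.29 to -0.24 and -0.58 to -0.53. Without the intensity trend Pygl (0.16, limma, adjusted p = 0.105) and Ugp2 (-0.27, adjusted p = 0.0508) no longer passed, and with the mouse number as a covariate Pygl did not (0.13). Gys2 passed among the brighter genes alone (-0.16), after quantile normalization again (-0.17), with the mouse number as a covariate (-0.22) and in the unadjusted exact permutation test (-0.16, exact p = 0.0117). Why Gys2 passed there was not tested, and the fit to the brighter genes alone also made fewer tests. Leaving out 1 mouse gave -0.18 to -0.13 for Gys2, 0.14 to 0.18 for Pygl, -0.30 to -0.22 for Ugp2 and 0.17 to 0.36 for Ppp1r3d against Ppp1r3g. Ppp1r3b against Ppp1r3d became 0.33 with averaged probe sets and 0.36 with medians. Nothing is read from pairs with Ppp1r3d or Ppp1r3g, as low levels such as theirs cannot be told from background without detection calls. At an adjusted p under 0.01, 467 genes were higher and 554 lower, of which 2 and 2 were among the 9. Between 2 and 3 of the 9 were called higher and between 2 and 4 lower under the alternatives. Scaling moved the median difference of all genes from -0.0048 to at most 0.0064. No paired analysis was possible because the groups share no replicate number. Ppp1r3d and Ppp1r3g have no value among the brighter genes alone. The outlier check on the 18 sets of 7 values gave 0 mice standing apart.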
